A study of Rattus norvegicus with 12 samples.

Results

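The transcripts of 13 families of transcription factors that direct neural fate were followed through RNA recovered with Staufen2 from embryonic rat brain. Members were the probes of an Illumina rat BeadChip whose gene symbol begins with Sox, Neurod, Neurog, Pou, Hes, Hey, Id, Pax, Lhx, Dlx, Nfi, Tcf, Ascl, Olig or Myt1, which took 87 of 22226 probes and 87 of 21882 gene symbols. Each of the 87 genes had 1 probe. In one group, labelled Stau2, lysates of whole brains from E17-E18 Sprague Dawley embryos were incubated with a rabbit antibody against Staufen2 (6 arrays). In the other, labelled Ctrl, the same kind of lysate was incubated with preimmune antibody (6 arrays). No animal was treated or carried an altered allele according to the labels, and the tissue label gives P18 where the protocols give E17-E18. The array labelled Stau2 without a number is replicate 0 here. The other Staufen2 arrays are replicates 1 to 5 and the preimmune arrays replicates 1 to 6. RNA of the whole lysate was not analysed here, so how abundant a transcript was in the brain and what share of it came down with Staufen2 cannot be told apart.

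Staufen2 is a double-stranded RNA-binding protein found in the ribonucleoprotein particles that carry, store and regulate mRNAs in neurons. The factors studied here act in sequence during neurogenesis. Id proteins and the Hes and Hey repressors hold progenitors back, proneural basic helix-loop-helix factors such as the neurogenins start neuronal commitment, and NeuroD, SOX, POU, NFI and homeodomain factors shape the identity and maturation of the daughter cells. The comparison asks which of these mRNAs were recovered above the preimmune background, and which were more or less frequent among the recovered mRNAs.

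More RNA was measured after Staufen2 immunoprecipitation on the whole array, with 45.4% to 48.8% of all probes detected (detection p under 0.05) against 11.6% to 34.8% after preimmune, the lowest being preimmune replicates 6 and 2. The detection p-values of the arrays carry codes that fall into 2 runs, with 4 arrays of each group in the first and 2 in the second (Staufen2 replicates 4 and 5, preimmune replicates 5 and 6); what the runs stand for could not be read from the labels. Neural transcripts showed in the arrays: 10 of 10 neuron markers were detected on all 6 Staufen2 arrays, among them Stmn2 and Gap43, and 8 of 9 progenitor markers were too. So were 6 of 7 genes for meninges and fibroblasts and 4 of 5 for red blood cells. For astrocytes 4 of 6 were, for the oligodendrocyte lineage 3 of 6 and for microglia 1 of 5, where 38.4% of all probes were. Detection alone thus did not single out neural tissue. The summed raw signal of the neuron list ran from 23523 to 34847 after Staufen2 and from 892 to 6287 after preimmune. That of the progenitor list ran from 9595 to 25660.0 and from 812 to 4849. Of the 4 endothelial and mural genes on the array, Cdh5, Tek and Rgs5 were detected on no array and Cldn5 on all 12 (mean raw signal 663 after Staufen2). Single markers of other sources were strong too. Hbb, the beta chain of haemoglobin, had a mean of 10018 after Staufen2 and 3123 after preimmune, and Igf2, of the list for meninges and fibroblasts, of 27649 and 616. Igf2 was called higher by 3.04 log2 units after normalization (limma, adjusted p = 3.57e-06). It did not stand for its list, of which 2 of 7 tested genes were higher, none lower and 5 not called. The median difference of that list was -0.42, and Dcn and Lum had means of only 149 and 150 after Staufen2. Progenitor markers called lower after normalization numbered 3 of 8 tested, with none higher, and neuron markers 2 lower and 3 higher of 10. Over all tested probes 16.8% were called lower and 32.9% higher, so the neuron counts lie near the shares of the array. The part of the marker values in the results on the families was not tested.

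The families were well represented in the Staufen2 immunoprecipitates. On average 65.7% ± 2.66 (SD, n = 6) of the 87 member probes were detected per Staufen2 array and 38.1% ± 8.49 (SD, n = 6) per preimmune array. The Staufen2 arrays ran from 60.9% to 69.0% and the preimmune arrays from 25.3% to 48.3%, without overlap. The difference of 27.6 percentage points had a two-sided exact permutation p of 0.00216, the smallest that 6 against 6 arrays can give. Over all probes the difference was 22.0 points (47.4% against 25.4%) with the same exact permutation p, so the test reads a gap of the whole array. Member probes had a mean raw signal of 846 ± 147 (SD, n = 6) after Staufen2 and of 118 ± 39.2 (SD, n = 6) after preimmune, again without overlap (exact permutation p = 0.00216). The mean raw signal of all probes did not overlap either, with 340 to 516 on the Staufen2 arrays and 69.2 to 129 on the preimmune arrays. Of the 87 members, 48 were detected on all 6 Staufen2 arrays, where 38.4% of all probes were. Another 19 were detected on no array (38.1% of all probes), and 20 on other sets of arrays. On all 12 arrays 17 members were detected (7.57% of all probes). The raw signals of 55 members did not overlap between the groups and were higher after Staufen2, as were 48.2% of all probes. Id and Myt1 members were detected on every Staufen2 array, 3 of 3 and 2 of 2. SOX members were so for 9 of 15, POU for 6 of 13, Hes and Hey for 4 of 9, TCF for 5 of 11 and Pax for 2 of 6.

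**Figure D1:**
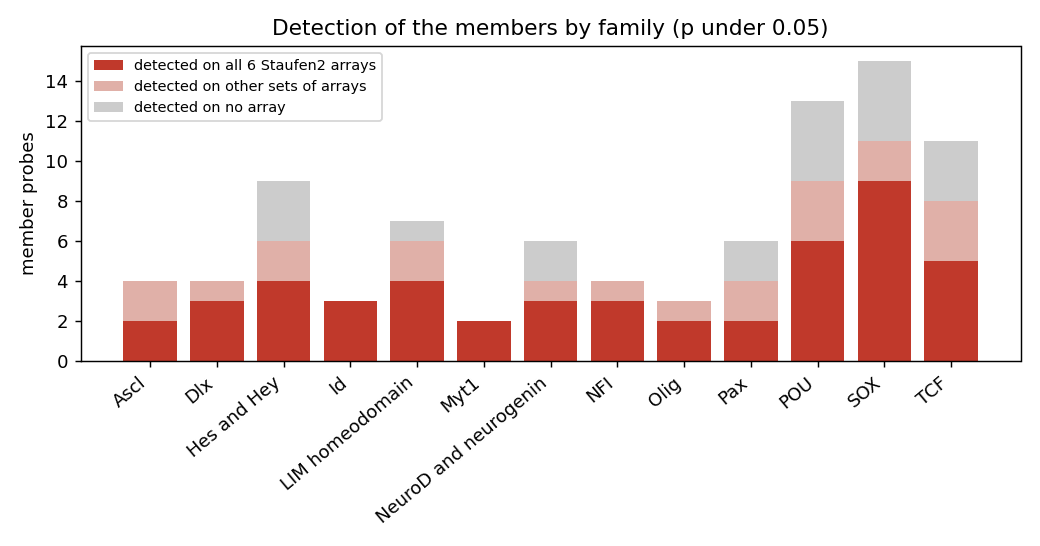
Number of member probes of each family (vertical axis) detected on all 6 Staufen2 arrays, on other sets of arrays, or on no array, at a detection p under 0.05. All members of the Id family (3) and the Myt1 family (2) are in the first class, while 4 of 13 POU and 4 of 15 SOX members were detected on no array.

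For the test, signals were background-corrected and quantile normalized, which makes all arrays alike in their spread of signal, and probes detected on at least 6 of 12 arrays entered. A difference is then a shift relative to the other transcripts of the same array, on the log2 scale with an offset of 16 added to the signal, and not a change in the amount recovered. Of the 87 members 50 were tested (41.1% of all probes were) and 37 were not. After Staufen2, 15 of 50 were higher and 10 of 50 lower at an adjusted p under 0.05 (limma, Benjamini-Hochberg over all 9136 tested probes), and 25 were not called. Over all tested probes 32.9% were called higher and 16.8% lower, so the shares of the families, 30% and 20%, lie near those of the array. Of the 15 called higher, 7 were detected on no preimmune array. These passed the filter only through the Staufen2 arrays on which they are high, so their calls support nothing, and they are described below by raw signal and by a lower bound of the fold where it exceeds 1. The median difference was 0.26 over the tested members and 0.32 over all tested probes. Without scaling between the arrays, every one of the 50 tested members had more signal after Staufen2, with a median difference of 2.86 log2 units (2.71 over all tested probes), 48 were called higher (96.9% of all tested probes) and none lower. With arrays centred on their medians instead, 45 were called higher (90.6%) and 1 lower (2.41%). The words higher and lower below therefore mean rank within the recovered RNA. In the first code run alone 14 members were higher (30.1% of all probes tested there) and 11 lower (19.6%). In the second run, with 2 arrays against 2, 6 were higher (13.6%) and none lower (1.01%).

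**Figure D2:**
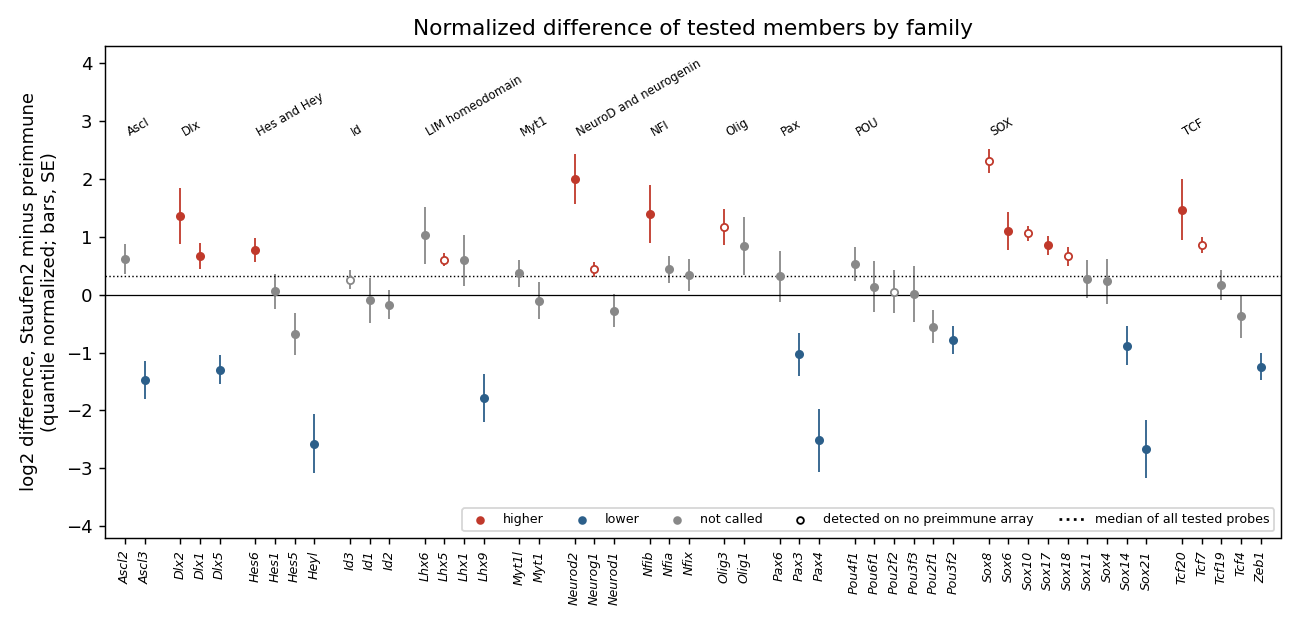
Log2 difference (Staufen2 minus preimmune, quantile-normalized signal, bars SE, n = 6 arrays per group) of 49 of the 50 tested members, grouped by family, with colours for the limma call. The dotted line is the median of all tested probes, 0.32. Open symbols are members detected on no preimmune array, whose differences are set against background. The others run from -2.66 for Sox21 to 2.00 for Neurod2, which most preimmune arrays did not detect. Most families hold members on both sides of the line.

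A second measure kept to probes whose mean over all 12 arrays stood well above background. The reason was that on simulated arrays of such unequal yield the normalized fit placed unchanged probes too high on average and called part of them higher. The second measure used the raw signal less the lower quartile of its array and took the 1951 probes whose mean was at least 500 units. Each array was centred on the median of these bright probes. Bright members could still lie at background on a preimmune array. On preimmune replicate 6, with a lower quartile of 64.1, Lhx6 read 68.1 and Pou3f3 71.1. There the floor of 8 units over background set their values. It also set the lowest preimmune values of Dlx2 (66.7) and Nfib (69.8), which lay under 8 units above the lower quartile of any preimmune array. The floored value of Pou3f3, -0.45, was also the highest preimmune bright value of Dlx2. Bright differences, those of Dlx2 and Nfib included, are thus not free of background either. By this measure 16 members were bright, where 8.78% of all probes were. Of these 2 were called higher (Hes6 and Dlx1), 4 lower (among them Pou3f2, Tcf4 and Pou3f3) and 10 were not called; of all bright probes 32.7% were higher and 30.2% lower. The median difference of the 16 was 0.017, against 0.13 over all bright probes. All 16 had raw signals without overlap between the groups. So had 91.1% of all tested probes, faint ones included, and the share over bright probes alone was not counted.

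**Figure D3:**
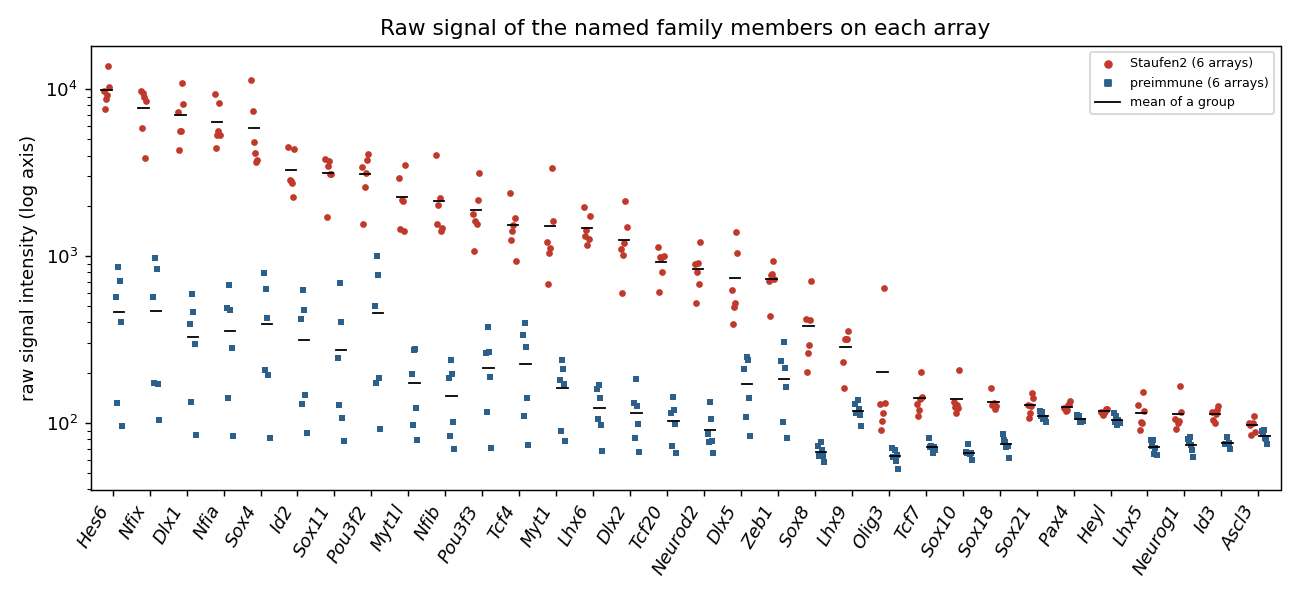
Raw signal intensity (log axis) of each named member on each of the 12 arrays, with circles for Staufen2, squares for preimmune and lines at group means, ordered by the Staufen2 mean. Hes6 leads with a mean of 9871 after Staufen2, and the members at the right, such as Heyl, Pax4 and Ascl3, lie close together in both groups.

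Id proteins bind the partners of proneural factors and keep them from DNA. All 3 members were detected on every Staufen2 array. Id2, the member with the most signal, had raw signals from 2273 to 4520.2 (median 2827) after Staufen2 and from 87.6 to 627 (median 283) after preimmune. Its 6 Staufen2 arrays all lay above the preimmune ones, with replicate 4 the lowest of them. The normalized difference was -0.17 ± 0.24 (SE, adjusted p = 0.594) and the bright one -0.45 ± 0.22 (adjusted p = 0.086). Neither passed; without preimmune replicate 5 the latter was -0.59 (adjusted p = 0.0145). Id3 had raw signals from 101 to 126 (median 115) and from 69.5 to 82.0 (median 75.0). It was detected on all Staufen2 and no preimmune arrays, as were 5.2% of all probes, and its bound did not exceed 1.

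Among the Hes and Hey repressors, which carry out Notch signals, the member with the most signal was Hes6, known in mouse to oppose Hes1 and promote neuronal differentiation. Hes6 had raw signals from 7564 to 13728 (median 9465) after Staufen2 and from 96.3 to 862 (median 484) after preimmune. It was called higher on both scales, by 0.77 ± 0.21 (SE, adjusted p = 0.00708) after normalization and by 0.49 ± 0.19 (adjusted p = 0.0312) among bright probes. In neither case were the groups fully apart, and the bright call was lost without Staufen2 replicate 1 or 4 or preimmune replicate 2, 3, 4 or 6 (0.38 to 0.49, adjusted p up to 0.0979). The normalized call held in all 12 fits without 1 array. The classical Notch effectors Hes1 and Hes5 had low signals, with means of 136 ± 65.9 and 159 ± 74.7 (SD, n = 6) after Staufen2, and were not called (0.06 and -0.68). Heyl had raw signals from 112 to 121 (median 117) after Staufen2 and from 97.4 to 115 (median 102) after preimmune. These overlap, so nearly the same low signal was read in both groups, and the normalized difference of -2.57 ± 0.50 (adjusted p = 0.000674) is the fall in rank of that signal; without scaling it was 0.18. Hes2, Hes3 and Hes7 were detected on no array.

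In the Ascl family, Ascl2 was not called (0.62 ± 0.26, SE, adjusted p = 0.0628). Ascl2 is known in mouse from trophoblast and intestinal stem cells. Ascl3 had low signals in both groups, from 84.6 to 110.2 (median 98.5) and from 75.1 to 91.2 (median 83.8). They overlap, and its normalized value was lower, with a difference of -1.47 ± 0.33 (adjusted p = 0.00169).

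Neurod2, a factor of maturing excitatory neurons, was called higher. Its raw signals were from 523 to 1215 (median 848) after Staufen2 and from 65.8 to 134 (median 82.4) after preimmune, where 2 arrays detected it. Normalized values did not overlap (20.9% of tested probes did so in this direction), and the difference was 2.00 ± 0.43 (SE, adjusted p = 0.00132). It was 1.85 in the first code run and 2.26 in the second, where it was not called (adjusted p = 0.0787). Neurod2 met the filter through the Staufen2 arrays alone. Its median preimmune signal lay near background, so this call supports little. Neurod1, its relative, had a similar raw mean of 801 ± 265 (SD, n = 6) and was not called (-0.28 ± 0.29, adjusted p = 0.446). The difference between these relatives was not tested. Neurog1, listed as Neurod3 in the file, had low signals, from 92.0 to 166 (median 104) against from 62.2 to 82.1 (median 75.8). It was detected on no preimmune array and its bound did not exceed 1; replicate 4 was the highest Staufen2 array.

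Olig3, known in mouse from progenitors of the dorsal spinal cord and hindbrain, was detected on all Staufen2 and no preimmune arrays. Its signals were from 90.3 to 644 (median 123) after Staufen2 and from 52.7 to 70.5 (median 63.3) after preimmune. The highest, replicate 4, stood far above the other Staufen2 arrays, which reached at most 133. Against the lowest detected level of the preimmune arrays the normalized Staufen2 mean was at least 1.07-fold higher, a bound that did not exceed 1 without that array or without preimmune replicate 4. Olig1, of the oligodendrocyte lineage, had a mean of 817 ± 307 (SD, n = 6) and was not called (0.85 ± 0.51, adjusted p = 0.179). Markers of that lineage were mixed: of 5 tested, 1 (Cnp) was higher and none lower, and Mag was detected on no array.

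Dlx homeodomain factors specify inhibitory neurons of the ventral forebrain, and their 3 tested members split. Dlx1 had raw signals from 4298 to 10939 (median 6484) after Staufen2 and from 84.6 to 589.8 (median 346) after preimmune. It was higher by 0.67 ± 0.23 (SE, adjusted p = 0.0236) after normalization and by 0.46 ± 0.18 (adjusted p = 0.0397) among bright probes, with groups that overlap on both scales. Dlx2 gave raw signals from 603 to 2130.1 (median 1150.0) and from 66.7 to 183 (median 112). Replicate 4 was the highest Staufen2 array for both genes. Without it the normalized difference of Dlx1 was 0.54 (adjusted p = 0.0608), and the bright call of Dlx1 was lost in 9 of 12 fits without 1 array, all but those without Staufen2 replicates 1 and 3 and preimmune replicate 5 (as low as 0.31, adjusted p up to 0.141). Dlx2 was higher after normalization (1.35 ± 0.48, adjusted p = 0.0297), a call lost without Staufen2 replicate 4 (1.18, adjusted p = 0.0643) or preimmune replicate 2 (1.25, adjusted p = 0.069), and was not called among bright probes (0.29 ± 0.28, adjusted p = 0.374). Dlx5 went the other way, with from 393 to 1385 (median 575) after Staufen2 and from 83.6 to 248 (median 176) after preimmune. Its raw groups did not overlap, yet its normalized values lay lower after Staufen2 without overlap (11.7% of tested probes), with a difference of -1.30 ± 0.25 (adjusted p = 0.000571). The difference was -1.61 in the first code run and -0.76 in the second, where it was not called (adjusted p = 0.338).

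Among LIM homeodomain factors, Lhx6, a factor of interneurons born in the medial ganglionic eminence, had raw signals from 1165 to 1966 (median 1373) after Staufen2 and from 68.1 to 168 (median 123) after preimmune. It was not called on either scale (1.03 ± 0.49, adjusted p = 0.0965; bright 0.21 ± 0.28, adjusted p = 0.518), and without preimmune replicate 2 the normalized difference was 1.36 (adjusted p = 0.0447). Lhx5 was detected on no preimmune array, with low signals from 91.0 to 153 (median 109.5) against from 64.3 to 79.6 (median 71.5), and its bound did not exceed 1. Lhx9, expressed in the embryonic thalamus and other regions, had raw signals from 162 to 353 (median 319) after Staufen2 and from 95.6 to 138 (median 118) after preimmune. Raw signal was higher after Staufen2 on every array, and the normalized value lower, with a difference of -1.78 ± 0.41 (adjusted p = 0.00222). Of 9 LIM cofactors measured, 7 were tested and 4 called higher after normalization, where 32.9% of all tested probes were, and none lower. The 4 include Ssbp2, a partner of the LIM-domain-binding proteins (1.70 ± 0.23, limma, adjusted p = 2.72e-05), and Lmo3 (1.85 ± 0.55, adjusted p = 0.0112). Lmo3 was detected on only 3 preimmune arrays, with a mean preimmune signal of 94.8, and met the filter through the Staufen2 arrays alone. Of the 3 bright cofactors 2 were higher and 1 lower, where 32.7% and 30.2% of all bright probes were. The lower one was Lmo4 (-0.67, limma, adjusted p = 0.000677), with a mean raw signal of 10754 after Staufen2.

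In the Pax family only Pax6, Pax4 and Pax3 could be tested. Pax6, of cortical radial glia, had a mean of 467 ± 284 (SD, n = 6) after Staufen2 and was not called (0.32 ± 0.44, adjusted p = 0.579). Pax3, of dorsal neural tube progenitors, was lower (-1.03 ± 0.38, adjusted p = 0.0323), from raw signals that overlap between the groups. Pax4, better known from the pancreas, had raw signals from 118 to 135 (median 125) after Staufen2 and from 101 to 112 (median 105) after preimmune. This faint signal was present on all 12 arrays and differed little in raw units, and its rank fell by 2.52 ± 0.54 log2 units (adjusted p = 0.00129).

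POU factors of class III shape the layers of the cortex and regulate neuronal differentiation. Pou3f2 had raw signals from 1553 to 4081 (median 3266) after Staufen2 and from 92.7 to 1006 (median 345) after preimmune. In bright, centred values the Staufen2 arrays ran from 0.09 to 0.74 (median 0.59) and the preimmune arrays from 0.89 to 2.03 (median 1.87). These did not overlap (20.9% of bright probes in this direction). The transcript was thus less frequent in the Staufen2 RNA relative to the bright probes, with a difference of -1.14 ± 0.21 log2 units (SE, adjusted p = 0.000142), and of -0.78 ± 0.24 on the normalized scale (adjusted p = 0.0136). Both calls held without any 1 array, and the normalized one was lost when the closest arrays of each group were averaged (-0.69, adjusted p = 0.0535). They rest on the first code run: the bright difference was -1.53 there (adjusted p = 4.69e-07) and -0.32 in the second run (adjusted p = 0.633), and the normalized one -1.31 and 0.10. Pou3f3 had raw signals from 1065 to 3128 (median 1710.3) and from 71.1 to 374 (median 226). It too was lower among bright probes (-0.61 ± 0.23, adjusted p = 0.0289), with -0.88 in the first run and -0.03 in the second, and that call was lost without Staufen2 replicate 0, 1 or 3 or preimmune replicate 1, 2 or 5 (-0.58 to -0.49, adjusted p up to 0.0729). On the normalized scale its value was 0.013 ± 0.48 (adjusted p = 0.985) and became -0.54 (adjusted p = 0.0256) without preimmune replicate 6. Whether the runs differed from each other was not tested. Of the other POU members, Pou4f1, Pou2f1 and Pou6f1 were tested and not called, at -0.55 to 0.53.

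**Figure D4:**
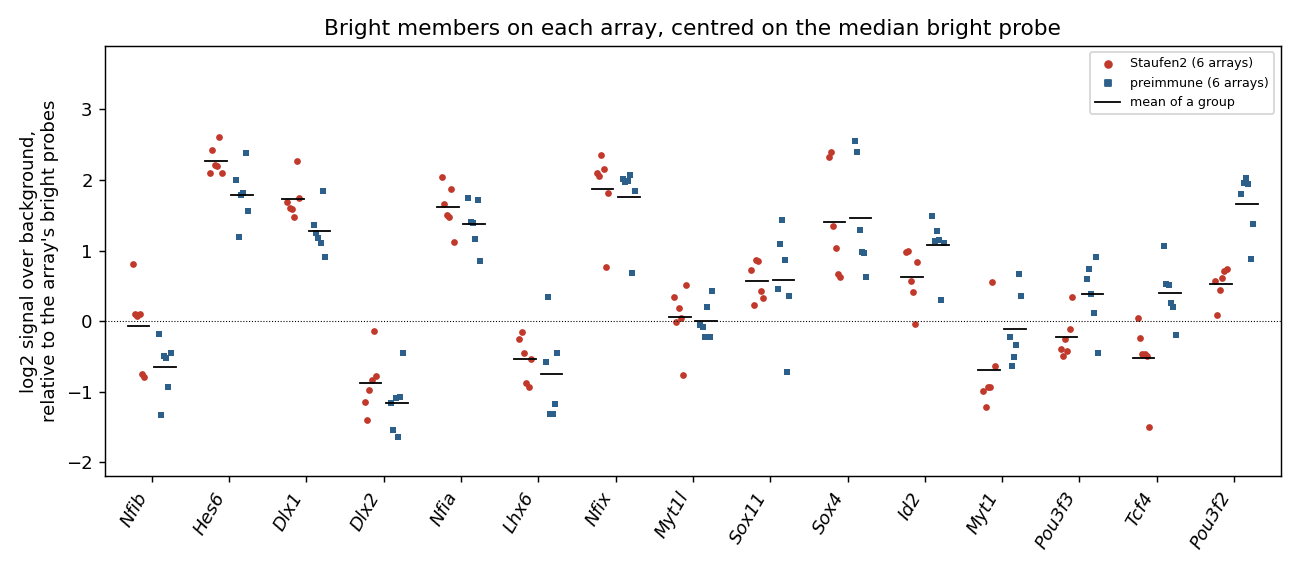
Log2 signal over background of 15 of the 16 bright members on each array (vertical axis), relative to the median bright probe of the array, with circles for Staufen2, squares for preimmune and lines at group means, ordered by the difference. Pou3f2 at the right is the member whose groups lie apart, and the spread within a group is wide for Sox4 and, with 1 low array, for Tcf4.

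SOX factors include progenitor, neuronal and glial regulators, and the 9 tested members were 5 higher, 2 lower and 2 not called; 3 of the 5, Sox8, Sox10 and Sox18, were detected on no preimmune array. Sox8 belongs to the glial group with Sox9 and Sox10. Its raw signals were from 201 to 711 (median 352) after Staufen2 and from 58.7 to 76.8 (median 66.0) after preimmune, without overlap. Its normalized Staufen2 mean was at least 2.48-fold higher than the lowest detected preimmune level. Without 1 array the bound was 2.16-fold to 3.07-fold, and with limma's background estimate 1.52-fold. Sox10 gave raw signals from 115 to 209 (median 126) and from 59.9 to 75.0 (median 65.8). Sox18, an endothelial factor, gave raw signals from 121 to 162 (median 129) and from 61.9 to 85.9 (median 75.0). The raw groups of both were apart, with bounds of at least 1.03-fold and 1.02-fold higher that did not exceed 1 with limma's background estimate. Without 1 array the bound of Sox10 did not exceed 1 for Staufen2 replicates 1 and 5 and preimmune replicates 1, 3 and 4, and that of Sox18 for Staufen2 replicates 0 and 1 and preimmune replicates 1, 3, 4 and 5. Sox6 (1.10, limma, adjusted p = 0.0107), detected on 2 preimmune arrays, and the endothelial factor Sox17 (0.86, adjusted p = 0.000573), detected on 1, were also called higher. They too met the filter through the Staufen2 arrays alone. Their preimmune signals, from 66.5 to 94.4 and from 61.2 to 88.4, lay near background, so these calls support little. Beside Sox17 and Sox18, the endothelial markers Cdh5 and Tek were at background on every array and Cldn5 was lower (-1.63, adjusted p = 0.00759).

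Sox4 and Sox11, which promote neuronal differentiation, were the SOX members with the most signal. Sox4 had raw signals from 3647 to 11393 (median 4478) after Staufen2 and from 80.9 to 796 (median 317) after preimmune. Sox11 had raw signals from 1709 to 3805 (median 3276) and from 78.2 to 693 (median 186). Both were far higher in raw signal after Staufen2, without overlap. Neither passed the threshold on the normalized scale (0.23 ± 0.40, adjusted p = 0.659, and 0.27 ± 0.33, adjusted p = 0.518) or among bright probes (-0.064 ± 0.38 and -0.0092 ± 0.29). Sox21, which counteracts the SOXB1 factors of progenitors, had raw signals from 108 to 152 (median 127) after Staufen2 and from 101 to 118 (median 109) after preimmune. The raw groups overlap, and its rank fell by 2.66 ± 0.50 (adjusted p = 0.000476), the most of any tested member; unscaled the difference was 0.29. Sox14, known from interneurons of the spinal cord and midbrain, was the other lower member (-0.88 ± 0.34, adjusted p = 0.0402), again with more raw signal after Staufen2 on every array.

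NFI factors drive the onset of gliogenesis and later neuronal maturation. Nfix had raw signals from 3888 to 9738 (median 8734) after Staufen2 and from 104 to 974 (median 371) after preimmune, with Staufen2 replicate 4 the lowest of its group. Nfia had raw signals from 4467 to 9370.3 (median 5466) and from 84.0 to 675 (median 378). These were among the strongest members, and neither passed on either scale (Nfix 0.34 ± 0.27, Nfia 0.44 ± 0.23 after normalization). Nfix was called higher after normalization with array weights (0.48, adjusted p = 0.0496) and in the first code run (0.39, adjusted p = 0.0163). Nfib had raw signals from 1422 to 4027 (median 1792) and from 69.8 to 239 (median 144). It was called higher after normalization (1.40 ± 0.51, adjusted p = 0.0312) and lost that call without Staufen2 replicate 0, 1, 2 or 3 or preimmune replicate 2 (1.20 to 1.34, adjusted p up to 0.0759). It was not called among bright probes (0.58 ± 0.27, adjusted p = 0.0757). Without Staufen2 replicate 4 or 5 that difference was 0.67 and 0.68 (adjusted p = 0.0391 and 0.0363), and it was 0.87 in the first code run and 0.01 in the second. Myt1 and Myt1l are zinc finger factors of newborn and mature neurons. Myt1l had raw signals from 1413 to 3509 (median 2154) and from 78.9 to 278 (median 159). Myt1 had raw signals from 678 to 3366 (median 1164) and from 78.2 to 237 (median 176), with replicate 4 alone at the top. Neither passed on the normalized scale (0.37 ± 0.23 and -0.10 ± 0.32) or among bright probes (0.043 ± 0.21 and -0.58 ± 0.30). Without replicate 4 the bright difference of Myt1 was -0.87 (adjusted p = 0.00787).

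The symbol Tcf joins unrelated factors. Tcf4, in current use an E protein that pairs with proneural factors, had raw signals from 931 to 2398 (median 1469) after Staufen2 and from 73.7 to 399.7 (median 214) after preimmune. Staufen2 replicate 5 was the lowest of its group. Among bright probes it was lower, with a difference of -0.91 ± 0.25 (SE, adjusted p = 0.00482), and the call held without any 1 array. Tcf4 gave -0.90 in the first code run and -0.91 in the second, where it was not called (adjusted p = 0.25). It was not called after normalization (-0.37 ± 0.37, adjusted p = 0.429), but was without preimmune replicate 6 (-0.74, adjusted p = 0.0212). Tcf7, a Wnt effector that binds beta-catenin, was detected on no preimmune array and gave raw signals from 110.2 to 201 (median 135) against from 66.3 to 81.4 (median 71.6). The bound of at least 1.04-fold higher did not exceed 1 with limma's background estimate or without Staufen2 replicate 4 or preimmune replicate 3 or 4. Tcf20, a chromatin-associated coregulator, gave raw signals from 608 to 1128 (median 980.0) and from 66.3 to 144 (median 107). It was higher by 1.47 ± 0.53 (adjusted p = 0.0297). That call was lost without Staufen2 replicate 0, 2 or 3 or preimmune replicate 2 (1.16 to 1.39, adjusted p up to 0.0645). Zeb1, listed as Tcf8 in the file and a zinc finger repressor of epithelial genes, gave raw signals from 438 to 939 (median 749.8) and from 81.0 to 304 (median 189). Its rank fell by 1.24 ± 0.23 (adjusted p = 0.000419), while its raw signal was higher on every Staufen2 array. Zeb1 gave -1.22 in the first code run and -1.26 in the second, where it was not called (adjusted p = 0.157).

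The log2 ratio of a pair of relatives on one array does not depend on how arrays are scaled against each other. It was compared between the groups for the 7 pairs of a family in which both members were detected on all 12 arrays. With the offset of 16 added to each signal, the ratio shrinks as the signals near background, so it still depends on yield. The levels of the members of a pair were not compared, only how the ratio moved. Dlx1 over Dlx5 lay between 3.05 and 3.70 log2 units on the Staufen2 arrays and between 0.05 and 1.51 on the preimmune arrays, so Dlx1 gained 2.46 log2 units more than Dlx5 (exact permutation p = 0.00216, adjusted over 7 pairs 0.00379). The same p was found for the 3 pairs that hold a member with nearly constant faint signal. These were Hes6 with Heyl (5.06), Sox4 with Sox21 (4.36) and Sox11 with Sox21 (4.31). Unscaled, Heyl moved by 0.18 and Sox21 by 0.29, so these ratios repeat the gain in signal of the brighter member and their p adds nothing. The part of the lower preimmune yield in the ratio of Dlx1 to Dlx5 was not tested. The other pairs overlapped between groups: Myt1l over Myt1 differed by 0.65 (exact permutation p = 0.169, adjusted 0.236), Nfix over Nfia by -0.06 (adjusted 0.942) and Sox4 over Sox11 by 0.05 (adjusted 0.942). Without Staufen2 replicate 4 the ratio of Myt1l to Myt1 differed by 1.06 (exact permutation, adjusted p = 0.00379).

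**Figure D5:**
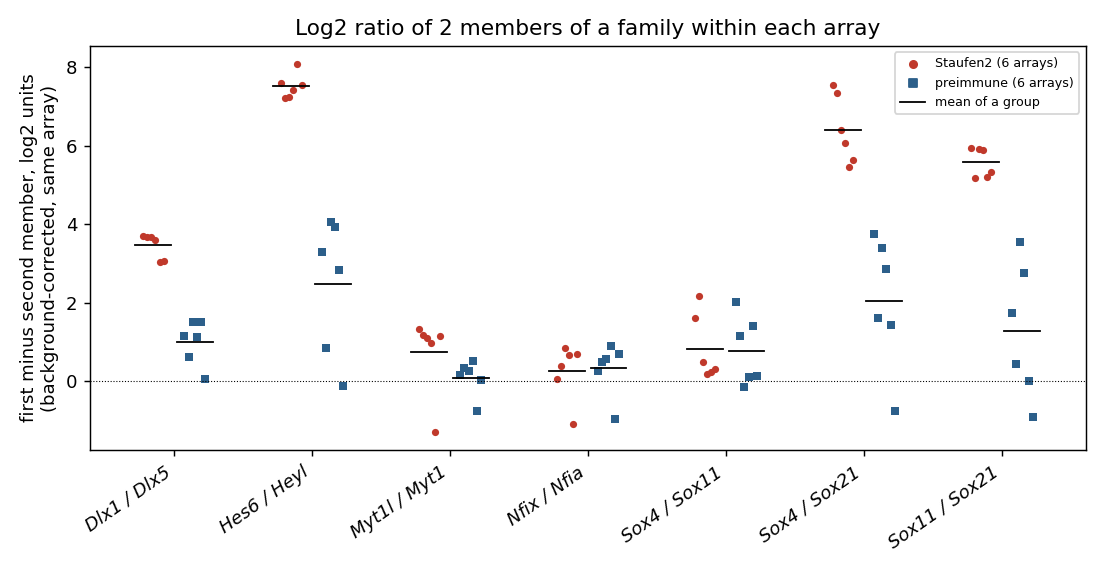
Log2 ratio of 2 members of one family on each array (vertical axis, background-corrected signal), with circles for Staufen2, squares for preimmune and lines at group means. For Dlx1 and Dlx5 the Staufen2 arrays lie between 3.05 and 3.70 and the preimmune arrays at 1.51 or below; for Nfix and Nfia and for Sox4 and Sox11 the groups overlap.

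Within the Staufen2 group the members differed more from array to array than bright probes did in general, with a median SD of 0.41 log2 units against 0.33 over all bright probes, given as a description. The widest ranges were 1.78 for Sox4, highest on replicate 1 and lowest on replicate 5, and 1.76 for Myt1, highest on replicate 4. Replicate 4 was the highest Staufen2 array for 5 of the 16 bright members (21.3% of all bright probes) and the lowest for 4. Myt1, Dlx1, Dlx2 and Hes6 were among those that had their highest value there, and Nfix, Id2, Lhx6 and Myt1l their lowest.

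The partners of these families were read from 5 lists on the normalized scale, each beside the 32.9% and 16.8% called over all tested probes. Bright counts are to be read beside the 32.7% higher and 30.2% lower over all bright probes. Among bright probes 3 of 4 Notch genes were higher and 1 lower, and 2 of 6 Wnt partners higher and 0 lower. Neither of the 2 bright BMP genes was called. Of 9 bright neural factors outside the families 2 were higher and 4 lower. Of 18 tested genes of Notch signalling, 9 were higher and 1 lower, with a median difference of 0.60. The 9 include Ncstn and Dtx4, detected on no preimmune array. The highest were Dtx3 (2.16 ± 0.32, adjusted p = 6.77e-05), of a family of Notch-regulating ubiquitin ligases, and Mfng (2.11 ± 0.46, adjusted p = 0.0015), which adds sugars to Notch, and the one lower was Psenen (-1.76 ± 0.34, adjusted p = 0.000555), a subunit of gamma-secretase. Of 18 tested Wnt and beta-catenin partners 6 were higher and 1 lower. The 6 include Fzd9, detected on no preimmune array. Pygo2, a coactivator of beta-catenin that 1 preimmune array detected, rose by 3.62 ± 0.30 (adjusted p = 7.11e-07) and Dvl1 by 2.05 ± 0.61 (adjusted p = 0.0115), and the corepressor Tle2 was lower (-1.37 ± 0.34, adjusted p = 0.00384). Of 11 tested BMP genes, upstream of the Id family, 3 were higher and none lower. These were the BMP antagonist Grem1 and Smad5, each detected on no preimmune array, and the inhibitor Smad7, detected on 1 (0.57 ± 0.15, limma, adjusted p = 0.00577). As for the members, calls of genes detected on no preimmune array support nothing. Pygo2 and Smad7 also met the filter through the Staufen2 arrays alone, with mean preimmune signals of 77.1 and 74.8, near background. Of 40 tested neural transcription factors outside the families 10 were higher and 5 lower, with Zbtb18 (1.91 ± 0.41, adjusted p = 0.00125) and Nr2f2 (1.43 ± 0.30, adjusted p = 0.00111) highest. Zbtb18 and Nr2f2 were detected on 2 and 3 preimmune arrays, with mean preimmune signals of 77.4 and 83.1, near background. They too met the filter through the Staufen2 arrays alone, so these calls support little. Zbtb18 also varied widely after Staufen2 (618 ± 626, SD, n = 6). The lowest were Phox2a (-2.52 ± 0.45, adjusted p = 0.000349) and Gsx1 (-2.51 ± 0.45, adjusted p = 0.000346), whose mean raw signals of 120 ± 6.77 and 114 ± 6.80 (SD, n = 6) after Staufen2 were as faint as those of Heyl, Pax4 and Sox21.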

How the data were processed

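Per the labels, RNA from 6 Staufen2 and 6 preimmune immunoprecipitates was amplified, biotin-labelled and read on Illumina arrays; RMA is named in the submitters' processing notes, with neither version nor role given there. The table deposited by the authors gives, for 22226 probes on 12 arrays, the raw intensity of the signal and the p-value of its detection. The deposited log2 values equal the log2 of that raw signal for all 22226 probes within 1e-04, so they carry no scaling. Bead standard errors (12 columns) were left out. Detection columns were tied to arrays by file position and checked against the signals (at most 268 neighbouring probes out of order, against at least 6730 for any other column).

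Signals were corrected with limma 3.58.1 (R 4.3.3) by the normexp model with an offset of 16 and quantile normalized. Background mean and noise came from the signals at fixed detection p-values. limma's own estimate from the same p-values was tried first; it was replaced after the members' results under it had been seen, because its noise was far larger on the Staufen2 arrays, and is an alternative. Two-sided tests used lmFit and eBayes (trend on intensity) with Benjamini-Hochberg adjustment over all tested probes and a threshold of 0.05; errors are SE of the fit. The bright measure floored signal over background at 8 units. A bound ("at least") sets the Staufen2 mean against the mean, per preimmune array, of the higher of the lowest detected value and the probe's own. Single values had two-sided exact permutation tests over 924 splits. The fits were tested on simulated data. With equal yields they recovered the known changes. With the unequal yields of these arrays the normalized fit called part of the unchanged probes higher and missed many decreases, which the bright measure did far less. Signal over background limits the precision of faint probes.

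Symbols were updated through a RefSeq table of assembly GRCr8, for names only: 83 were current, 3 were replaced through 1 older symbol and 1 (Tcf1) was kept. The members, marker lists and partner lists were chosen with earlier results of these data known. The values of 1 member are not reported here; it stays in the fits and in the counts over members. Other members named with values were the 12 highest and 8 lowest called members whose groups did not overlap, every bright member, and up to 6 detected on all Staufen2 and no preimmune arrays; of each partner list, the 2 highest and 2 lowest called genes. The test of pairs of relatives, the bright values by code run, the bounds under other settings and the relatives named for comparison (Ascl2, Hes1, Hes5, Neurod1, Olig1, Pax3, Pax6, Sox6, Sox14, Sox17 and the other POU members) were added after values were seen. The labels do not say which brains or lysates the arrays came from, so a p-value here covers only how these arrays scatter, which may be technical.

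Alternatives were other scalings, offsets, filters and background estimates, array weights, the code run or the replicate number as a block, each code run alone, and fits without single arrays. Replicate numbers 1 to 5 occur in both groups. The correlation of same-numbered arrays' deviations from their group means ran from -0.10 to 0.26 and was not over 0.1 for every number, so numbers were not taken to pair the arrays. The closest arrays of a group correlated at 0.997 (Staufen2 replicates 2 and 3) and 0.99 (preimmune replicates 3 and 4), and averaging each such pair is an alternative.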

Additional observations from a re-analysis of the deposited data

Results flagged for a closer look

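Among 66 sets of 6 arrays (32 named members and the detected share, in each group), 12 held 1 array far from the other 5, by the 95% critical value of Dixon's gap ratio. Chance flags about 1 in 20 sets. On the normalized log2 scale Staufen2 replicate 4 was the highest for Myt1 (9.36), Neurog1 (5.53), Olig3 (7.21, others up to 5.23), Sox21 (5.42) and Tcf7 (5.78), and the lowest for Nfix (9.53, others from 10.55). Its raw signals were 3366 for Myt1, 644 for Olig3 and 3888 for Nfix. Staufen2 replicate 1 was the highest for Pax4 (5.45) and replicate 5 the lowest for Tcf4 (7.56).

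Preimmune replicate 6, the array with the fewest detected probes, was the lowest for Lhx6 (4.76), Pou3f3 (5.92) and Tcf4 (7.05). Preimmune replicate 5 was the lowest for Nfix (9.23, others from 10.32). The part of the low signal of preimmune replicate 6 in these values was not tested.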

How the results depend on the processing

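Signal over background limits these arrays, since 7 of the members called higher were detected on no preimmune array. Of the 15 members called higher and 10 lower, no scaling gave 48 and 0 (limma, none at an unadjusted p under 0.05), and median centring 45 and 1. Probes detected on all 12 arrays, which left 17 members, gave 2 higher and 8 lower (15.8% and 60.1% of all probes in that fit). Array weights gave 20 and 16 (36.7% and 30.5%), and the second code run alone 6 and 0 (6 lower at an unadjusted p under 0.05). The other settings, limma's background estimate included (14 and 9), stayed within 1.5 times of both counts. Without 1 array the counts were 13 to 18 higher and 8 to 11 lower, with probes detected on 5 of 11 arrays tested. That filter was chosen after the counts with 6 of 11 had been seen: there, leaving out a Staufen2 array left 40 or 41 members tested, with 5 to 7 higher and 8 to 10 lower. The detected share differed by 25.02 to 29.6 percentage points without 1 array and by 22.9 without preimmune replicates 2 and 6.

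All 18 tested members with a negative difference were positive without scaling. Of those named by rule and reported, they were Ascl3 (0.32), Dlx5 (2.70), Heyl (0.18), Id2 (4.25), Lhx9 (1.81), Myt1 (3.96), Pax4 (0.36), Pou3f2 (3.61), Sox21 (0.29), Tcf4 (3.65) and Zeb1 (2.74). With median centring those that turned sign were Dlx5 (2.19), Id2 (3.74), Lhx9 (1.30), Myt1 (3.45), Pou3f2 (3.10), Tcf4 (3.14) and Zeb1 (2.23). Pou3f2 was 0.10 in the second code run. Pou3f3 turned to -0.45 with array weights, -0.54 without preimmune replicates 2 and 6 or without replicate 6 alone, -0.50 with the replicate block and -0.62 in the first code run, and reached at most 0.19 without 1 array; the cause was not tested.

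The count of bright members called higher, 2, was 0 with a minimum of 1000 units (none at an unadjusted p under 0.05) or in the second code run and 0 to 2 without 1 array. It was 1 with the replicate block, and 1 without preimmune replicates 2 and 6, where Hes6 and Dlx1 were lost and Lhx6 was gained (0.60, adjusted p = 0.0274). The count called lower, 4, was 2 with the 1000 minimum, of which 1 was among the 4, 1 in the second run, which was not among the 4, and 3 to 5 without 1 array. Same-numbered arrays share only a number; with the replicate block in limma's fit 14 members were higher and 10 lower. Among named members it ended the calls of Nfib (0.82, adjusted p = 0.0614) and Tcf20 (1.08, adjusted p = 0.0619) and the bright call of Dlx1 (0.39, adjusted p = 0.0949), and brought Tcf4 (-0.81, adjusted p = 0.00559) and Pou3f3 (adjusted p = 0.0495) past the threshold. Of named members detected on preimmune arrays, array weights also brought Id2 (-0.49), Lhx6 (0.64) and Tcf4 (-0.70) past the threshold, and leaving out preimmune replicates 2 and 6 brought Lhx6 (0.80) and Tcf4 (-0.83) and ended Dlx1 (0.50) and Nfib (0.65). Dlx2, Nfib and Tcf20 were lost without a detection filter (adjusted p 0.0516 to 0.0560), Dlx2 (0.86) and Tcf20 (1.48) in the first code run, and 13 such calls in the second.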
